A study of Mus musculus with 9 samples.

Results

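Nitric oxide and cGMP signalling in the mouse aorta was followed through 10 genes: the nitric oxide synthases Nos1, Nos2 and Nos3, the cofactor enzyme Gch1, the inhibitor-degrading enzymes Ddah1 and Ddah2, the arginase Arg1, the caveolar protein Cav1, the cGMP-dependent kinase Prkg1 and the cGMP phosphodiesterase Pde5a. All 10 had at least 1 probe set that the platform annotation pairs with that gene alone, 21 probe sets in all, among 18193 genes measured on the array. Each gene is described by its probe set with the highest mean over the 9 arrays. Aortas came from male BMAL-/- mice (4 arrays, F02, F03, F05 and F08) and male BMAL+/+ mice (5 arrays, F01, F04, F07, F09 and F10), both partially backcrossed onto C57Bl/6J, that is, without or with a working gene for the clock transcription factor BMAL1. No other allele and no age is given in the labels used here. All animals were kept in a cycle of 12 h light and 12 h dark for at least 2 weeks, then in the dark for at least 30 h. They were killed under anesthesia at ZT14, early in what would have been the dark phase of the earlier cycle. After a rinse through the heart the vessel was removed from the arch to beyond the femoral branches, per the extraction protocol, while another label field calls it thoracic. Each array reads the wall with any fat, nerve or muscle still attached.

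In the vessel wall, endothelial nitric oxide synthase (NOS3) makes nitric oxide from arginine with the cofactor tetrahydrobiopterin, whose first synthetic step is run by GCH1. DDAH1 and DDAH2 are known for removing methylated arginines that inhibit the synthases, arginase competes for arginine, and caveolin-1 holds NOS3 in an inactive state in caveolae. Nitric oxide reaches smooth muscle, activates soluble guanylyl cyclase, and the cGMP formed relaxes the muscle through the kinase PRKG1 until PDE5 breaks it down.

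The 20th percentile of an array was 2.38 to 2.45 and array medians lay between 3.13 and 3.24 on the log2 scale, highest on F02 and F03, both BMAL-/-. The labels of 3 arrays need care. F01 has a BMAL+/+ title and strain and a BMAL-/- source name. Arntl, the gene of BMAL1 itself, read 5.87 on F02, 6.22 on F03, 2.77 on F05 and 6.05 on F08 in BMAL-/-, against 2.76 on F01, 6.67 on F04, 2.79 on F07, 2.82 on F09 and 2.74 on F10 in BMAL+/+; the labels do not say whether its probe set lies in the deleted stretch. At the clock gene Nr1d2, a repressor driven by BMAL1, the arrays labelled BMAL-/- read 5.08 on F02, 5.89 on F03, 11.21 on F05 and 5.48 on F08, against 11.69 on F01, 5.81 on F04, 11.27 on F07, 10.39 on F09 and 11.09 on F10 among those labelled BMAL+/+. F05 and F04 thus stood with the other genotype, while F01 stood with F07, F09 and F10 at both genes. Results are therefore reported over all 9 arrays by their labels and again over the 7 that remain without F04 and F05. F01 was kept as BMAL+/+ and counted as BMAL-/- only as an alternative. Markers of vessel wall and of attached tissue were both read. The means of 8 smooth muscle markers per array were 10.27 to 11.54 in BMAL-/- and 10.88 to 11.51 in BMAL+/+. Those of 11 endothelial markers were 6.27 to 6.79 in BMAL-/- and 6.65 to 6.95 in BMAL+/+. The 5 measured adipocyte markers had means of 11.02 to 11.98 in BMAL-/- and 11.31 to 12.37 in BMAL+/+. For 6 striated muscle markers they were 7.43 to 9.78 in BMAL-/- and 5.24 to 10.43 in BMAL+/+. The share of each tissue was not tested. In bulk tissue, fewer cells of a type and less RNA per cell cannot be told apart.

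No member changed at the threshold. Of the 10 genes, 0 had a limma adjusted p under 0.05 in the 9 arrays, where 0% of 45037 probe sets did, and 0 did in the 7 arrays, where 0.00888% did. At an unadjusted limma p under 0.05 the brightest probe sets of the 10 members numbered 0 in both groupings, against 7.25% of all genes in the 9 arrays and 22.3% in the 7. Over all 21 member probe sets the count was 0 in the 9 arrays, where 8.67% of all probe sets passed, and 4 (19%) in the 7, where 23.7% did. These 4 were 2 dim sets of Nos1 and 1 of Ddah1, higher by 0.03 to 0.13, and 1 of Pde5a, lower. The smallest adjusted p among members was 0.37 in the 9 arrays and 0.208 in the 7. A mean above the median probe set (3.19) was found for 6 of the 10: Nos3, Gch1, Ddah2, Cav1, Prkg1 and Pde5a. Of these 6, 5 were lower in BMAL-/- as labelled and 6 were lower in the 7 arrays, where 47.5% and 45.8% of comparable genes (brightest probe set above the same median) were lower. Their median difference was -0.21 and -0.41, against 0.01 and 0.03 over the comparable genes. The direction of Gch1 and Prkg1 among them turned in several settings, and that of Pde5a in 2. In none of the 6 were the groups apart, in either grouping. Among comparable genes the groups were apart with BMAL-/- lower for 0.259% and higher for 0.34% in the 9 arrays, and for 5.06% and 8.18% in the 7.

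**Figure D1:**
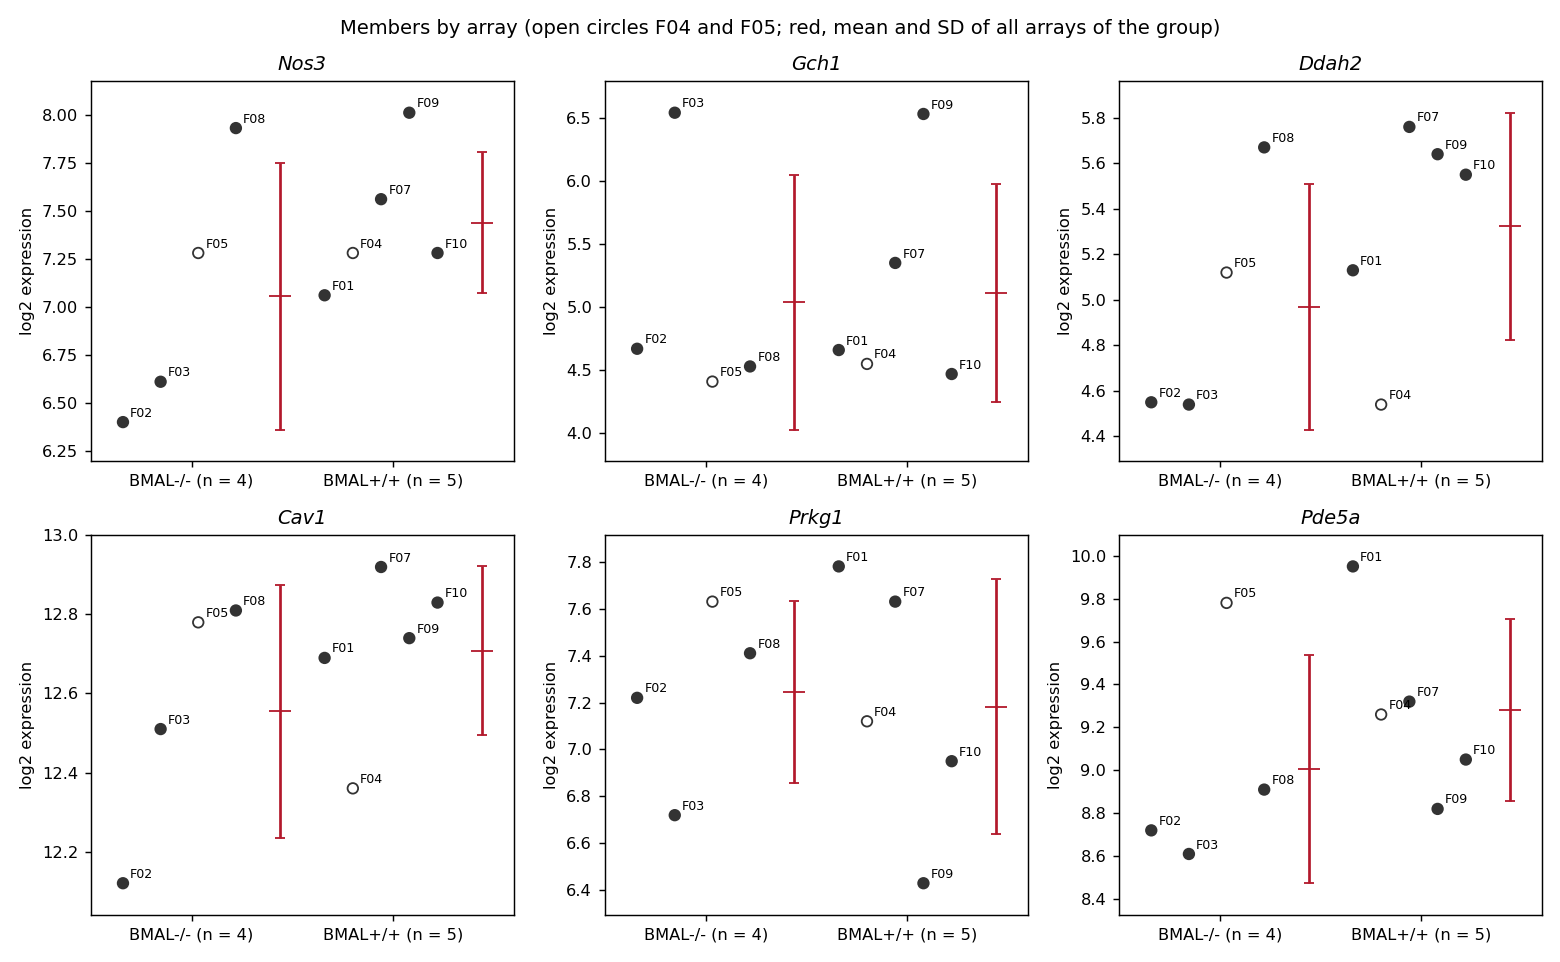
Log2 expression of 6 members on each array, with BMAL-/- on the left and BMAL+/+ on the right of each panel. Open circles are F04 and F05, whose clock genes go against their labels, and red marks are the mean and SD of all arrays of the group. The groups overlap in every panel; F02 and F03 are low for Nos3, Ddah2 and Cav1, and F03 and F09 are high for Gch1.

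Nos3, the synthase of endothelium, read 6.40 on F02, 6.61 on F03, 7.28 on F05 and 7.93 on F08 in BMAL-/-, against 7.06 on F01, 7.28 on F04, 7.56 on F07, 8.01 on F09 and 7.28 on F10 in BMAL+/+. F02 and F03 were the lowest of the 9 arrays, while F08, also BMAL-/-, was second only to F09. BMAL-/- arrays averaged 7.05 ± 0.69 (SD, n = 4), those of BMAL+/+ 7.44 ± 0.37 (SD, n = 5), and the groups differed by -0.38 ± 0.33 (SE, limma adjusted p = 0.513; exact permutation p = 0.27, two-sided, smallest possible 0.00794). Without F04 and F05 the difference was -0.50 ± 0.42 (SE, limma adjusted p = 0.432). It lay between -0.97 (without F08) and -0.20 (without F02) when 1 of those 7 arrays was left out, so its size rested on single BMAL-/- arrays. The genes with the closest array pattern were Cog4 (r = 0.978), Trpc4ap (0.96) and Tmem100, a membrane protein of endothelium (0.959).

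Endothelial markers did not follow Nos3 as a block. Emcn, a sialomucin of endothelium, read 4.84, 5.45, 6.84 and 7.4 on F02, F03, F05 and F08 in BMAL-/-, against 6.20, 6.04, 7.24, 8.22 and 7.66 on F01, F04, F07, F09 and F10 in BMAL+/+, low on F02 and F03 as Nos3 was. Cdh5, the cadherin of endothelial junctions, read 6.34, 7.23, 6.34 and 6.14 in BMAL-/-, against 6.72, 7.65, 6.27, 5.63 and 5.71 in BMAL+/+, and was high on F03. Emcn and Cdh5 are shown as examples of either direction. Among the 11 endothelial markers, only Emcn and Pecam1 (5.14 and 5.75) had F02 and F03 as their lowest arrays, as Nos3 had. All 11 were measured and none had a mean below the median probe set. Of these, 8 were lower and 3, Cdh5 among them, higher in BMAL-/- as labelled, where 47.5% of comparable genes were lower. Their part in the Nos3 values was not tested.

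The other synthases lay below the median probe set. Nos1, the neuronal form, read 3.06 to 3.10 in BMAL-/- and 3.01 to 3.37 in BMAL+/+ on its brightest probe set, with the highest values on F07 (3.37) and F10 (3.30). Its other 3 probe sets read 2.10 to 2.44 in BMAL-/- and 2.09 to 2.41 in BMAL+/+. Nos2, the inducible form of macrophages and activated muscle, read 2.12 on F02, 2.10 on F03, 2.09 on F05 and 2.06 on F08 in BMAL-/-, against 2.05 on F01, 2.09 on F04, 2.08 on F07, 2.07 on F09 and 2.08 on F10 in BMAL+/+. The whole range of Nos2 over 9 arrays was 0.07, highest on F02 and F03, where the array median was also highest. Its difference of 0.02 ± 0.01 (SE) changed sign with quantile normalization and with centring on 1 median. At such levels the arrays do not show whether Nos1 or Nos2 is transcribed, and the files hold no detection flags.

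Gch1 varied more between arrays than any other member, and did so within both genotypes. It read 6.54 on F03 in BMAL-/-, with F02, F05 and F08 at 4.67, 4.41 and 4.53, and it read 6.53 on F09 and 5.35 on F07 in BMAL+/+, with F01, F04 and F10 at 4.66, 4.55 and 4.47. The highest array of each genotype was thus nearly equal, and F07 lay between F09 and the other BMAL+/+ arrays. BMAL-/- arrays averaged 5.04 ± 1.01 (SD, n = 4), those of BMAL+/+ 5.11 ± 0.87 (SD, n = 5), and the groups differed by -0.07 ± 0.56 (SE, limma adjusted p = 0.946). In the 7 arrays the means were 5.25 ± 1.12 in BMAL-/- (SD, n = 3) and 5.25 ± 0.93 in BMAL+/+ (SD, n = 4), with limma adjusted p = 0.997. Its second probe set showed the same arrays, at 3.78 on F03 and 3.03 to 3.18 on the other BMAL-/- arrays, and at 4.35 on F09 and 3.01 to 3.09 on the other BMAL+/+ arrays.

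Genes of nerve and chromaffin cells were high on the same arrays. Th, tyrosine hydroxylase, which uses the same cofactor to make catecholamines, read 5.91 on F03 and 3.76 to 3.97 on the other BMAL-/- arrays, and 9.06 on F09, 5.25 on F07 and 3.68 to 3.96 on the other BMAL+/+ arrays. Snap25, a protein of synaptic release, read 8.33 on F03 and 2.84 to 5.60 on the other BMAL-/- arrays, and 9.50 on F09 and 2.73 to 6.91 on the other BMAL+/+ arrays. Uchl1, a neuronal ubiquitin hydrolase, read 5.15 on F03 and 3.12 to 3.88 on the other BMAL-/- arrays. In BMAL+/+ it read 9.43 on F09, but also 5.06 on F07, 4.96 on F10, 4.49 on F01 and 3.07 on F04. F03 was thus close to F07 and F10 for Uchl1. The mean of the 4 measured nerve and Schwann cell markers, of 6 listed, was 4.0 to 6.57 in BMAL-/- (highest on F03) and 4.04 to 8.50 in BMAL+/+ (highest on F09). S100b, of Schwann cells and fat, followed in part, at 6.87 on F03 and 5.66 to 6.30 on the other BMAL-/- arrays, but at 6.03 on F09 and 5.25 to 6.61 on the other BMAL+/+ arrays. The genes closest to Gch1 over the 9 arrays were Chga, the granin of neuroendocrine granules (Pearson r = 0.988), Gdap1 (0.98) and Scn9a, a sodium channel of peripheral neurons (0.978). These are the top 3 of 6291 candidate genes and are high by that choice. The part of attached nerve or chromaffin tissue in the Gch1 values was not tested.

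**Figure D2:**
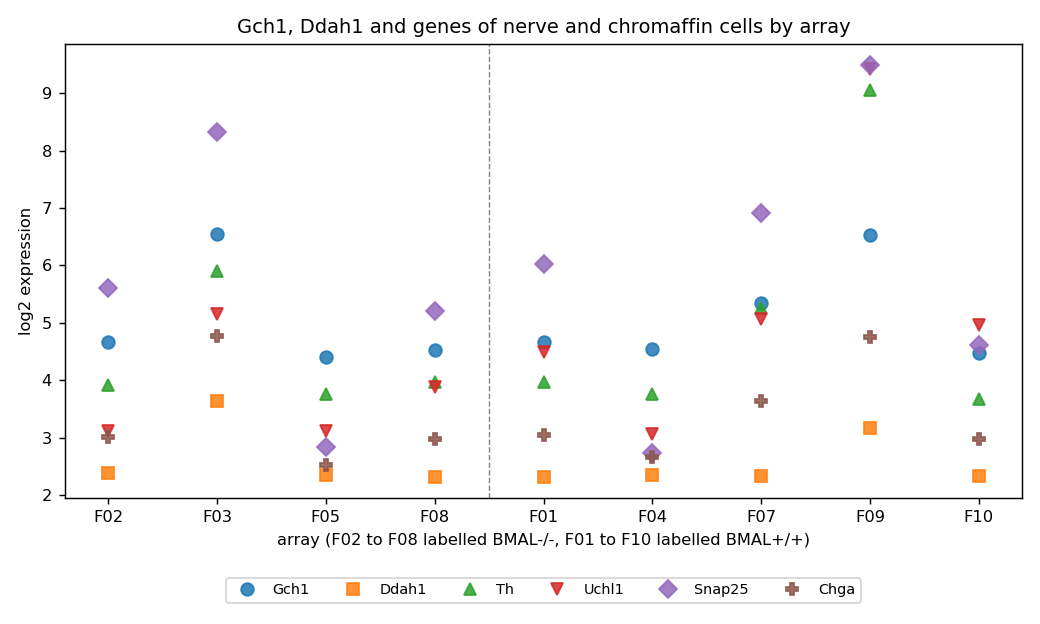
Log2 expression of Gch1, Ddah1, Th, Uchl1, Snap25 and Chga on each of the 9 arrays, BMAL-/- arrays left of the dashed line and BMAL+/+ arrays right of it. F03 in BMAL-/- and F09 in BMAL+/+ carry the highest Gch1 (6.54 and 6.53), Ddah1 (3.64 and 3.16) and Chga (4.77 and 4.76).

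Gch1 is shown with the stretch before its start site because BMAL1 is known to act through the E-box CACGTG, and because its level moved most between arrays. The 250 bases before its start in RefSeq (GRCm38.p6, chr14:47189414-47189663, minus strand, written 5′ to 3′ along the gene) hold no CACGTG on either strand, and none of the related E-box with a final T (CACGTT). Capitals mark a TGACG, the core of cAMP response elements, beginning 88 bases before the start, and a CCAAT box beginning 70 bases before it; both motifs were picked after the values were seen.
Gch1: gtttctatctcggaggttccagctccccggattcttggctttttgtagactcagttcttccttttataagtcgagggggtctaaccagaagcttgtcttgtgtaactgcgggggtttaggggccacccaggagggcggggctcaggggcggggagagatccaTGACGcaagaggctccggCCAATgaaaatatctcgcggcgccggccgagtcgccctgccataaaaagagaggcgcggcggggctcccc
RefSeq windows were given for 7 of the 10 members, 9 windows in all. Of these 9, 0 held CACGTG in the 250 bases before the start, which 6.02% of 32851 mouse windows do, and 0 held CACGTT or its reverse complement, which 3.85% do. The windows of Gch1 and Nos1 held TGACG on either strand, as did 17.8% of all windows. Those of Gch1 and Prkg1 held CCAAT, as did 33.8%. A window without these letters says nothing of sites farther away.

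Ddah1 lay below the median probe set except on F03, with F09 next. On its brightest probe set it read 3.64 on F03 and 2.32 to 2.38 on the other BMAL-/- arrays, and 3.16 on F09 and 2.31 to 2.34 on the other BMAL+/+ arrays. A second probe set has nearly the same mean (2.56 against 2.57) and read 2.74 on F03 but 2.55 on F09. The difference of the brightest was 0.18 ± 0.31 (SE, limma adjusted p = 0.739) and became -0.14 without F03. Its remaining 3 probe sets stayed between 1.96 and 2.47 in BMAL-/- and between 1.95 and 2.44 in BMAL+/+.

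Ddah2, the form known from endothelium, read 4.55 on F02, 4.54 on F03, 5.12 on F05 and 5.67 on F08 in BMAL-/-, against 5.13 on F01, 4.54 on F04, 5.76 on F07, 5.64 on F09 and 5.55 on F10 in BMAL+/+. F02, F03 and F04 gave nearly the same low value, and whether that is the floor of this probe set was not tested. BMAL-/- arrays averaged 4.97 ± 0.54 (SD, n = 4), those of BMAL+/+ 5.32 ± 0.50 (SD, n = 5), and the groups differed by -0.35 ± 0.32 (SE, limma adjusted p = 0.529). In the 7 arrays it was -0.60 ± 0.32 (SE, limma adjusted p = 0.248; exact permutation p = 0.229, smallest possible 0.0286), with means of 4.92 ± 0.65 in BMAL-/- (SD, n = 3) and 5.52 ± 0.28 in BMAL+/+ (SD, n = 4). F08 lay within the BMAL+/+ range and the other 2 BMAL-/- arrays below it. Genes with the closest pattern were Mrgprf (r = 0.991), Cd9, a tetraspanin (0.985), and Sema3b (0.985). Cd9 read 8.20, 8.39, 9.39 and 10.06 on F02, F03, F05 and F08 in BMAL-/-, against 9.18, 8.59, 10.41, 10.34 and 10.03 on F01, F04, F07, F09 and F10 in BMAL+/+.

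Arg1, the arginase of liver and of some activated macrophages, read 2.21 to 2.25 in BMAL-/- and 2.19 to 2.22 in BMAL+/+, a range of 0.06 below the 20th percentile of the arrays. Its difference of 0.02 ± 0.01 (SE) also turned negative with quantile normalization and with centring. The macrophage markers, 8 of 8 measured, had means of 6.22 to 7.73 per array in BMAL-/- and 6.90 to 8.49 in BMAL+/+; 8 of 8 were lower in BMAL-/- as labelled, none past the threshold. Striated muscle markers, 6 of 6 measured, ranged more widely, with means of 7.43 to 9.78 in BMAL-/- and 5.24 to 10.43 in BMAL+/+.

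Cav1, the coat protein of caveolae, read 12.12 on F02, 12.51 on F03, 12.78 on F05 and 12.81 on F08 in BMAL-/-, against 12.69 on F01, 12.36 on F04, 12.92 on F07, 12.74 on F09 and 12.83 on F10 in BMAL+/+. It was the steadiest of the 6 members above the median probe set, with an SD of 0.26 over all arrays, and its 3 lowest arrays were again F02, F03 and F04. BMAL-/- arrays averaged 12.56 ± 0.32 (SD, n = 4), those of BMAL+/+ 12.71 ± 0.21 (SD, n = 5), and the groups differed by -0.15 ± 0.17 (SE, limma adjusted p = 0.613), and -0.31 ± 0.17 (SE, limma adjusted p = 0.252) in the 7 arrays. Without F02 alone it was -0.01 in the 9 arrays and -0.14 in the 7. Cav1 is also abundant in adipocytes, whose 5 measured markers, of 6 listed, had means of 11.02 to 11.98 in BMAL-/- and 11.31 to 12.37 in BMAL+/+; their part was not tested. Its closest genes were Med1 (r = 0.958), Ppp2cb (0.957) and Fads1 (0.953), of 6292 candidates.

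Calls among the members came only when F08 was left out of the 7 arrays or when arrays were weighted. Without F08, which leaves 2 BMAL-/- arrays, 4 of 10 members passed: Ddah2 (-0.97, limma adjusted p = 0.0169) and Cav1 (-0.48, limma adjusted p = 0.0473) as lower, and Nos2 and Arg1 (each 0.04, limma adjusted p = 0.0322 and 0.0093) as higher, both at levels below the 20th percentile. In that fit 36.5% of all probe sets passed, 31.3% of all genes, and 12.7% of genes above the median probe set. With array weights 3 of 10 passed, Ddah2 (-0.98), Cav1 (-0.46) and Arg1 (0.04), where 34.3% of all probe sets, 30.2% of all genes and 14.8% of genes above the median probe set passed. In the 9 arrays neither setting called a member.

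**Figure D3:**
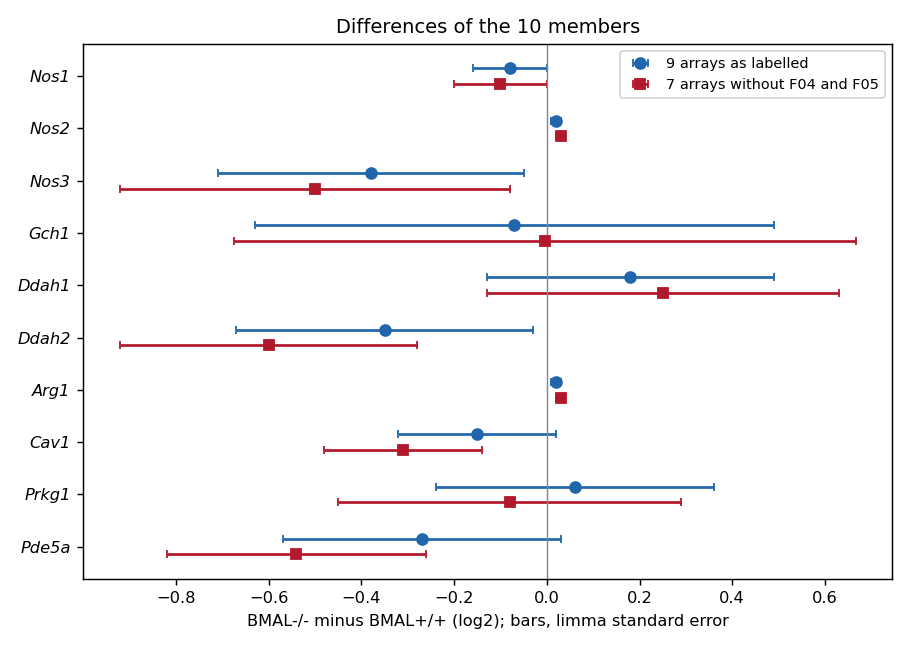
BMAL-/- minus BMAL+/+ on the log2 scale for the 10 members, with limma standard errors, for the 9 arrays as labelled (circles) and the 7 arrays without F04 and F05 (squares). Ddah2 at -0.35 and -0.60 and Nos3 at -0.38 and -0.50 lie farthest to the left as labelled; Nos2 and Arg1, both dim, lie within 0.03 of 0.

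Prkg1, the kinase that carries the cGMP signal in smooth muscle, read 7.22 on F02, 6.72 on F03, 7.63 on F05 and 7.41 on F08 in BMAL-/-, against 7.78 on F01, 7.12 on F04, 7.63 on F07, 6.43 on F09 and 6.95 on F10 in BMAL+/+. The extremes, F01 and F09, were both BMAL+/+. BMAL-/- arrays averaged 7.24 ± 0.39 (SD, n = 4), those of BMAL+/+ 7.18 ± 0.54 (SD, n = 5), and the groups differed by 0.06 ± 0.30 (SE, limma adjusted p = 0.918), and -0.08 ± 0.37 (SE, limma adjusted p = 0.888) in the 7 arrays. The other probe set, of nearly the same mean, differed by -0.42 ± 0.45 (SE) and -0.63 ± 0.54 (SE), so the pair of probe sets had opposite signs as labelled. The gene closest to Prkg1 over the 9 arrays was Mrvi1 (r = 0.965), also called Irag1, a substrate of this kinase that curbs calcium release. Mrvi1 read 10.03, 9.53, 10.58 and 10.06 on F02, F03, F05 and F08 in BMAL-/-, against 10.79, 10.16, 10.33, 9.12 and 9.76 on F01, F04, F07, F09 and F10 in BMAL+/+, highest on F01 and lowest on F09 as Prkg1 was. Tenm3 (0.963) and Slmap, a sarcolemmal membrane protein (0.958), came next, among 6291 candidates.

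**Figure D4:**
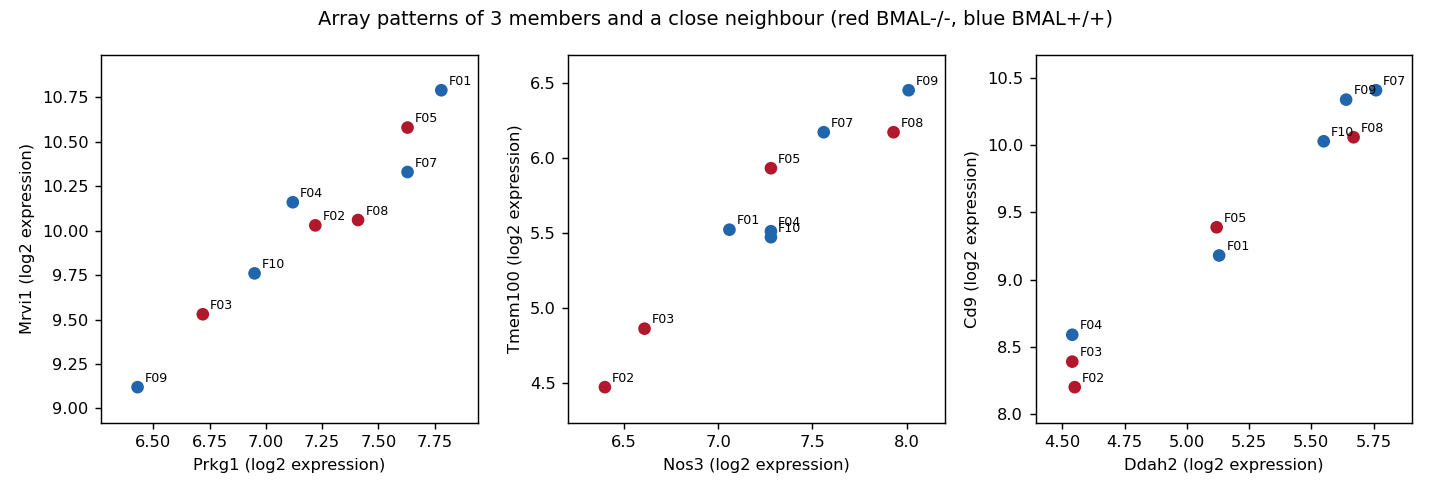
Log2 expression of Prkg1 against Mrvi1, Nos3 against Tmem100 and Ddah2 against Cd9, 1 point per array (red BMAL-/-, blue BMAL+/+). The arrays line up without separating by genotype; each partner is 1 of the 3 closest of 6291 genes and was chosen for that, at r = 0.965, 0.959 and 0.985.

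Pde5a, the cGMP-specific phosphodiesterase of smooth muscle, read 8.72 on F02, 8.61 on F03, 9.78 on F05 and 8.91 on F08 in BMAL-/-, against 9.95 on F01, 9.26 on F04, 9.32 on F07, 8.82 on F09 and 9.05 on F10 in BMAL+/+. F01 and F05, of opposite labels, were the highest, and F02 and F03 the lowest. BMAL-/- arrays averaged 9.01 ± 0.53 (SD, n = 4), those of BMAL+/+ 9.28 ± 0.42 (SD, n = 5), and the groups differed by -0.27 ± 0.30 (SE, limma adjusted p = 0.599), which became 0.08 with F01 counted as BMAL-/- and 0.32 with array weights. In the 7 arrays the means were 8.75 ± 0.15 in BMAL-/- (SD, n = 3) and 9.29 ± 0.49 in BMAL+/+ (SD, n = 4), a difference of -0.54 ± 0.28 (SE, limma adjusted p = 0.241). It shrank to -0.31 without F01 and to -0.01 with F01 counted as BMAL-/-. All 3 probe sets of Pde5a were lower in BMAL-/- in both groupings, by -0.12 to -0.43 as labelled and by -0.41 to -0.78 in the 7 arrays. The middle one, at -0.78 ± 0.29 (SE), was the member probe set above the median with the smallest limma p in the 7 arrays (adjusted p = 0.208; exact permutation p = 0.0857). The closest genes were Adgrl1 (r = 0.984), Plcb1, a phospholipase C (0.981), and Usp54 (0.978).

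The window before Pde5a is shown because all 3 probe sets of this member differed in 1 direction. The 250 bases before its start (GRCm38.p6, chr3:122728908-122729157, plus strand) contain none of these 4 motifs on either strand, and are therefore printed without capitals.
Pde5a: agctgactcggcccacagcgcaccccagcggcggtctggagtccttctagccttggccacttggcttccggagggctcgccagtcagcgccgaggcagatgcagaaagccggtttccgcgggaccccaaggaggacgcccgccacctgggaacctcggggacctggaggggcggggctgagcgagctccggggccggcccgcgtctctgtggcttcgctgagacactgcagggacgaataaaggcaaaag

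Around the members, 46 further genes of the pathway were measured, 36 of them above the median probe set. None passed in either grouping. As labelled, 27 were lower and 19 higher in BMAL-/-, with a median difference of -0.03 against 0.03 over all genes. Only 1 (2.17%) had an unadjusted limma p under 0.05, against 7.25% of all genes. It was Ass1, whose mean lay below the median probe set. In the 7 arrays 26 were lower and 20 higher, with a median of -0.13 against 0.04, and 10 (21.7%) had an unadjusted limma p under 0.05, near the 22.3% of all genes. Of the 36 above the median, 7 were among these as lower and 1 as higher, where 6.65% and 8.06% of comparable genes were. In 5 of the 36 every BMAL-/- array of the 7 lay below every BMAL+/+ array and in 1 above, against a background of 5.06% and 8.18%.

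Soluble guanylyl cyclase, the receptor of nitric oxide, had 3 of 3 measured subunits lower in both groupings, none past the threshold. Of comparable genes, 47.5% were lower as labelled and 45.8% in the 7 arrays. Gucy1b1, its beta subunit, read 7.82 on F02, 7.55 on F03, 8.90 on F05 and 9.49 on F08 in BMAL-/-, against 9.04 on F01, 8.22 on F04, 9.61 on F07, 9.48 on F09 and 9.34 on F10 in BMAL+/+. Its difference was -0.70 ± 0.45 (SE, limma adjusted p = 0.40) as labelled and -1.08 ± 0.47 (SE, limma adjusted p = 0.208) in the 7 arrays, again with F08 inside the BMAL+/+ range. Gucy1a1, the alpha subunit, differed by -0.27 and -0.39.

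Among targets of the kinase, Kcnmb1, the smooth muscle beta subunit of the BK potassium channel, read 4.51, 4.71, 6.70 and 7.09 on F02, F03, F05 and F08 in BMAL-/-, against 6.72, 4.91, 7.49, 6.60 and 6.78 on F01, F04, F07, F09 and F10 in BMAL+/+. It was low on F02, F03 and F04 and between 6.60 and 7.49 on all others, a difference of -0.75 ± 0.68 (SE) as labelled and -1.46 ± 0.64 (SE) in the 7 arrays (limma adjusted p = 0.534 and 0.208). Kcnma1, the pore subunit, differed by -0.76 ± 0.29 (SE) in the 7 arrays (limma adjusted p = 0.208), where its groups were apart. Rgs2, which shortens signals of contracting receptors, had the smallest p of this list as labelled (0.42 ± 0.28, SE).

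The natriuretic peptide receptor Npr2, which also makes cGMP, differed by -0.91 ± 0.27 (SE) in the 7 arrays (limma adjusted p = 0.208), with 6.52, 6.90 and 7.59 on F02, F03 and F08 in BMAL-/-, against 7.71 to 8.12 in BMAL+/+. The peptides Nppb and Nppc lay below the median probe set. Of the phosphodiesterases, Pde1a and Pde3a differed by -1.14 ± 0.41 (SE) and -0.74 ± 0.29 (SE) in the 7 arrays. Pde1c was higher by 0.11 as labelled, below the median probe set. Beside Cav1, the caveolar coat genes Cavin1 (-0.74 ± 0.27, SE) and Cavin2 (-0.70 ± 0.17, SE) had the lowest p of their list in the 7 arrays, and Akt1, a kinase that activates NOS3, differed by -0.43 ± 0.22 (SE) as labelled. On the cofactor side, Qdpr, which recycles biopterin, differed by 0.53 ± 0.17 (SE) in the 7 arrays, while Gchfr, the regulator of GCH1, lay below it. Of arginine enzymes, Ass1 (0.16 and 0.21) and Arg2 (0.09 and 0.14) differed by small amounts, both near the median probe set. Every gene in this paragraph had a limma adjusted p of at least 0.208.

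**Figure D5:**
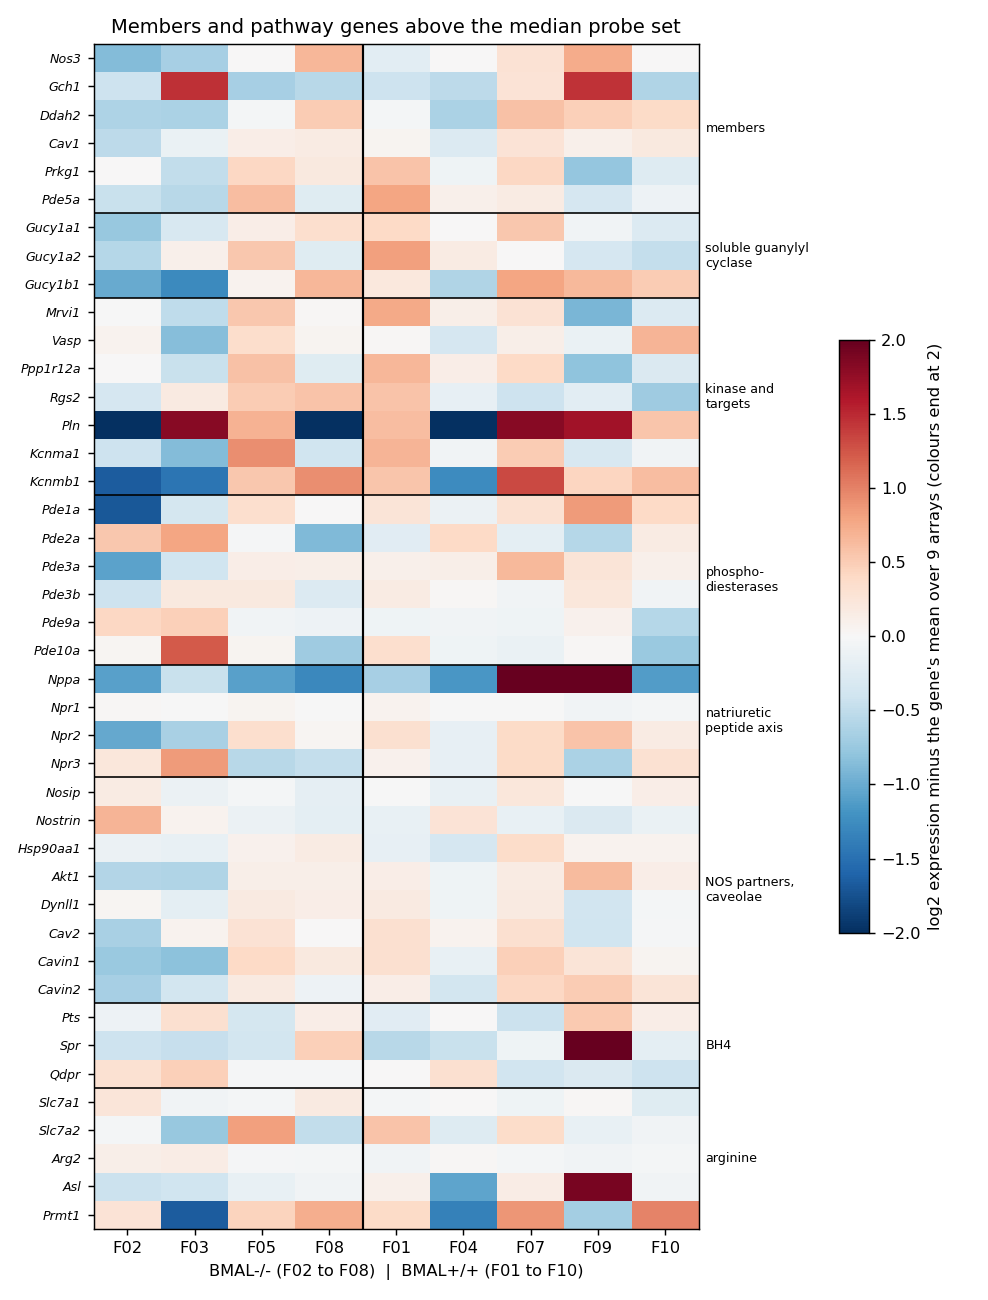
Log2 expression minus the gene's own mean over the 9 arrays, for 6 members and 36 pathway genes above the median probe set, BMAL-/- arrays left of the line and BMAL+/+ arrays right of it; colours end at 2 units either way. F02, F03 and F04 are low for Ddah2, Cav1, Gucy1b1, Kcnmb1, Cavin1 and Cavin2, and Gch1 is high on F03 and F09.

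The same 3 arrays recurred at the low end. F02 and F03 (BMAL-/-) and F04 (BMAL+/+) were the 3 lowest of the 9 for 2 of the 6 members above the median probe set (Ddah2 and Cav1) and for 8 of 36 pathway genes (22.2%; Gucy1b1, Npr2, Kcnmb1, Pde1a, Asl, Akt1, Cavin1 and Cavin2), against 7.92% of 11180 comparable genes. This count was made after the values were seen and has no test. At Nr1d2, F04 stood with F02 and F03 against its label (5.81, with 5.08 and 5.89). F08, at 5.48, shared that clock state. Because these genes were picked for having F02, F03 and F04 lowest, F08 could not be among their 3 lowest arrays. F08 was the next lowest for Npr2, Pde1a, Akt1 and Cavin2, but not for Ddah2, Cav1, Gucy1b1, Kcnmb1, Asl and Cavin1. Whether the pattern follows the clock state was not tested. Smooth muscle markers shared the pattern in part, with list means of 10.40 and 10.27 on F02 and F03 and 11.54 and 11.10 on F05 and F08 in BMAL-/-, against 10.89 on F04 and 10.88 to 11.51 on the others in BMAL+/+. Fibroblast markers, 6 of 6 measured, had means of 9.47 and 9.01 on F02 and F03 and 11.01 and 10.39 on F05 and F08 in BMAL-/-, against 9.74 on F04 and 10.74 to 11.11 on the others in BMAL+/+. Genotype, RNA quality and the make-up of the dissected tissue cannot be told apart in these 3 arrays from the files used here.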

How the data were processed

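RNA of 9 aortas was hybridised to Affymetrix MOE 430V2 arrays, 1 array per sample, per the labels. The deposited values are log2 expression per probe set. GCRMA and MAS5 are named, per the submitters' processing notes, with no role, version or setting. There are no detection flags, so differences among dim probe sets are not resolved. No further normalization or filter was applied. The 64 control probe sets were left out, leaving 45037, of which 34945 are paired with 1 gene, 932 with several and 9160 are not listed. Symbols were updated to RefSeq names (GRCm38.p6), with 34741 matched.

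Genotype was the only term of a linear model fitted to all 45037 probe sets with limma 3.58.1 in R 4.3.3 (lmFit, eBayes with a trend), two-sided, Benjamini-Hochberg over all of them, threshold 0.05. The labels call the samples biological replicates. Differences are BMAL-/- minus BMAL+/+. Exact permutation tests use every split of the arrays. The method was tested on simulated data. These had independent noise and neither crossed labels nor shared tissue differences, so they say little of how it does on arrays like these.

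Members, lists and the comparison without F04 and F05 were chosen with earlier results of these data known. Named genes were the members, the 2 pathway genes per list (7 lists) with the smallest p in each grouping, cell markers, Arntl and Nr1d2. The 3 genes closest to each bright member over 9 arrays (SD of at least 0.3) were named too. Outside this rule, Nppa, Spr, Pts, Pcbd1, Asl, Prmt1, Slc7a1 and Slc7a2 were named after their values were seen. Hsp90ab1, Itpr1 and Plin1 had no probe set of their own in the annotation used here, and some other listed genes are not reported here. Irag1 is listed as Mrvi1. Alternatives were quantile normalization, centring, no trend, array weights, a brightness filter, the one-way ANOVA of the design text, removal of _s_at and _x_at probe sets, a floor at the 20th percentile, averaging all probe sets of a gene, F01 in BMAL-/-, and leaving out each array.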

Additional observations from a re-analysis of the deposited data

Results flagged for a closer look

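A total of 66 groups of 4 or 5 arrays were looked at for an array far from the others of its group, and 9 stood out. The rule flags about 1 in 20 independent groups by chance. These groups overlap, with and without F04, and their pathway genes were picked by p, so that rate does not apply to the 9. Gch1 read 6.54 on F03, with the other BMAL-/- arrays at 4.41 to 4.67. Ddah1 read 3.64 on F03, with the other BMAL-/- arrays at 2.32 to 2.38, and 3.16 on F09, with the other BMAL+/+ arrays at 2.31 to 2.34, with or without F04. Arg1 read 2.19 on F01 against 2.21 on the other BMAL+/+ arrays without F04, a gap of hundredths at a dim level. Pde3a read 4.72 on F07, with the other BMAL+/+ arrays at 4.17 to 4.32.

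F04 stood apart from the other BMAL+/+ arrays at 3 dim genes. Pde1c read 2.81 on F04 and 2.71 to 2.74 on the others, Arg2 read 3.23 on F04 and 3.13 to 3.16 on the others, and Ass1 read 3.02 on F04 and 2.97 to 2.98 on the others. F04 and F10 had the highest array medians of BMAL+/+ (3.17 each), and their part in these values was not tested.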

How the results depend on the processing

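The count of members past the threshold was 0 in the 9 arrays under every alternative run. In the 7 arrays it was 0 except with array weights (3), and it ranged from 0 to 4 when 1 array was left out, the 4 coming without F08. Pathway genes past the threshold behaved alike: 0 throughout in the 9 arrays, 14 (30.4%) in the 7 arrays with array weights, where 30.2% of all genes passed, and 0 to 16 with 1 array left out, the 16 (34.8%) coming without F08, where 31.3% of all genes passed. Nos3, Ddah2 and Cav1 had a lower mean in BMAL-/- under every alternative in both groupings, without stability in size: with 1 array left out, Cav1 ranged from -0.24 to -0.01 in the 9 arrays and -0.48 to -0.14 in the 7, Ddah2 from -0.59 to -0.21 and -0.97 to -0.41, and Nos3 from -0.68 to -0.16 and -0.97 to -0.20. Pde5a in the 7 arrays was -0.01 with F01 in BMAL-/-. Directions turned as follows, and apart from the arrays left out the cause was not tested. Arg1 was -0.0028 and -0.02 in the 9 arrays and -0.0023 and -0.03 in the 7 with quantile normalization and centring, and Nos2 was -0.0004 and -0.02, and -0.0009 and -0.03. Nos1 was 0.02 and 0.03 with the mean of its probe sets. Pde5a in the 9 arrays was 0.32 with array weights and 0.08 with F01 in BMAL-/-. Prkg1 was -0.18 in the 9 arrays with the mean of its probe sets, and 0.0039 with quantile normalization and 0.28 with F01 in BMAL-/- in the 7. Gch1 in the 7 arrays was 0.09 with quantile normalization and 0.52 with array weights. With 1 array left out, Gch1 ranged from -0.57 to 0.28 in the 9 arrays and -0.65 to 0.42 in the 7, Prkg1 from -0.13 to 0.23 and -0.34 to 0.11, and Ddah1 from -0.14 to 0.35 and -0.18 to 0.48. The brightness filter left no value for Nos1, Nos2, Ddah1 and Arg1. No paired analysis was possible because the groups share no replicate numbers. With 4 and 5 arrays, and dim values for Nos1, Nos2, Ddah1 and Arg1, small differences are not resolved.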

Other observations

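Some enzymes of tetrahydrobiopterin and arginine metabolism, 4 of the 11 measured genes of these lists, had their highest value on F09, the BMAL+/+ array with the highest nerve markers. They were singled out after their values were seen, and the other 7 did not share this. Qdpr read 11.32 on F09, Prmt1 5.64 and Slc7a2 6.45, each among the 4 lowest of the 9 arrays, and Gchfr, Ass1, Arg2 and Slc7a1 read 2.67, 2.98, 3.14 and 6.57 there, within the range of the other arrays. Spr, the last enzyme of tetrahydrobiopterin synthesis, read 3.08 to 4.01 in BMAL-/-, against 5.58 on F09 and 2.98 to 3.46 on the other BMAL+/+ arrays. Pcbd1, which recycles the cofactor, read 3.41 on F03 and 1.90 to 2.12 on the other BMAL-/- arrays, and 4.33 on F09 and 2.07 to 2.60 on the other BMAL+/+ arrays. Pts, which acts between GCH1 and SPR, also had its 2 highest values on F09 (8.84, BMAL+/+) and F03 (8.63, BMAL-/-). Asl, which makes arginine, read 4.54 to 4.90 in BMAL-/-, against 6.87 on F09 and 3.91 to 5.12 on the other BMAL+/+ arrays. Gch1, Pcbd1 and Pts were thus high on F03 and F09, and Spr and Asl on F09 without F03. Pcbd1 had a mean of 2.53, below the median probe set. Pts ranged by only 0.94 over the arrays, with F08 and F10 at 8.44, close to F03.

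Nppa, the atrial peptide that raises cGMP through its own receptor, was picked after its values were seen. It read 3.06 to 3.90 in BMAL-/-, against 7.21 on F07, 8.35 on F09 and 3.19 to 3.68 on the other BMAL+/+ arrays. It differed by -1.76 as labelled and -2.21 in the 7 arrays (limma adjusted p = 0.40 and 0.283). The striated muscle markers Myh6 and Tnni3 read 12.27 and 8.08 on F07 and 11.70 and 8.49 on F09. On F03, in BMAL-/-, they read 12.82 and 8.42. None of the other striated muscle markers was highest on F07 or F09. The part of attached muscle in the Nppa values was not tested.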
